A study of Homo sapiens with 9 samples.

Results

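NDRG1, BNIP3, BNIP3L, ADM, ANKRD37, P4HA1, P4HA2, LOX, ERO1A and INSIG2 are 10 human genes known as targets of the hypoxia response that do not encode glycolytic enzymes. They were taken by gene symbol, 10 of the 46427 genes in the count table, and were chosen by their higher counts after bafilomycin A1 in these same libraries. The difference between treated and untreated cells is therefore only described: no p-value is given for these genes in it, and a call only says how the choice was made. The libraries came from H9, an established human embryonic stem cell line. The first group was undifferentiated hESC (3 libraries). The second was neural progenitor cells (NPC) differentiated towards midbrain dopaminergic neurons until day 11, left untreated and called control NPC here (3 libraries). The third was day 11 NPC exposed during differentiation to bafilomycin A1 (BafA1), an inhibitor of the vacuolar ATPase that acidifies lysosomes, at 10 nM for 6 h (3 libraries). Both NPC groups shared the differentiation agents, the BMP receptor inhibitor LDN193189 (200 nM), the TGF-beta receptor inhibitor SB431542 (10 µM), the Hedgehog agonist purmorphamine (2 µM) and the Wnt activator CHIR99021 (3 µM). More than one window of days is listed for BafA1, without the one that the sequenced cells had. The labels call the libraries biological replicates without saying whether these were separate differentiations, so p-values measure the spread between these samples.

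In cells with enough oxygen, prolyl hydroxylases of the EGLN family modify HIF1A and EPAS1, the VHL ubiquitin ligase binds the modified proteins, and they are degraded. When hydroxylation fails, the HIF proteins pair with ARNT and bind a short core, ACGTG or less often GCGTG, near target genes. Besides glycolytic enzymes, the targets include proteins that remove mitochondria, modify collagen, fold secreted proteins, signal to vessels and regulate lipid synthesis. HIF proteins are controlled mainly at the level of protein, which RNA counts do not measure.

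The sequence before the transcription start was examined first, since the core is what hypoxia targets are known for. RefSeq windows (GRCh38.p14) of 300 bases, 250 before the start and 50 from it on, were used. They were matched by gene ID for 8 of the 10 genes, with 11 windows because LOX and INSIG2 have several starts. NDRG1 and BNIP3L were not matched. The windows of LOX starts 2 and 3 overlap, as do both windows of INSIG2, so a core in an overlap is counted in each. ACGTG on either strand (read as CACGT on the opposite one) was present in windows of 6 of the 8 genes, BNIP3, ANKRD37, P4HA1, LOX, ERO1A and INSIG2, and in 9 of the 11 windows. It was held by 21.4% of all 35116 windows of RefSeq genes, and by 24.3% of the 20935 windows of genes tested here. These shares, and those of GCGTG, are per window and not per gene. GCGTG was in windows of 5 of the 8 genes, BNIP3, ADM, LOX, ERO1A and INSIG2, and in 7 of the 11 windows, against 36.5% of all windows and 45.9% of those of tested genes. A match is a description of letters and not a site of binding. The 250 bases before the start are printed for BNIP3 (chr10:131981924-131982173, minus strand), ANKRD37 (chr4:185396591-185396840, plus strand), P4HA1 (chr10:73096867-73097116, minus strand) and the start of LOX with the most copies (chr5:122078260-122078509, minus strand), which hold the core singly or repeated. ADM (chr11:10304823-10305072, plus strand) is printed as a gene without ACGTG. Capitals mark ACGTG or CACGT. Each runs 5′ to 3′ on the strand of the gene.
BNIP3: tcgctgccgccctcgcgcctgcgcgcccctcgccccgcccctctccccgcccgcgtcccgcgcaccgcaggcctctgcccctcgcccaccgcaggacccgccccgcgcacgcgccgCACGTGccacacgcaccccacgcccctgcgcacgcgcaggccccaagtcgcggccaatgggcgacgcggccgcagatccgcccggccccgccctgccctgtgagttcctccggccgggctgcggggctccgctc
ANKRD37: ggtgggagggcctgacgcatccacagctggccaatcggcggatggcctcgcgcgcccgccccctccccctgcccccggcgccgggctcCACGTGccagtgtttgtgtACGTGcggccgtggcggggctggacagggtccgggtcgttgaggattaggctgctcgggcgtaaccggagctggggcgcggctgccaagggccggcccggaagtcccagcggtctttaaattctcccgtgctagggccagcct
P4HA1: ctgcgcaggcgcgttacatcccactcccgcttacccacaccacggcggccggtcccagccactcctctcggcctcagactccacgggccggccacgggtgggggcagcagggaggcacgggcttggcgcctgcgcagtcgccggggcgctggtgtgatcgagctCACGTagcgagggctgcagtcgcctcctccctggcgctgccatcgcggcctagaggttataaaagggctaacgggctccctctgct
LOX: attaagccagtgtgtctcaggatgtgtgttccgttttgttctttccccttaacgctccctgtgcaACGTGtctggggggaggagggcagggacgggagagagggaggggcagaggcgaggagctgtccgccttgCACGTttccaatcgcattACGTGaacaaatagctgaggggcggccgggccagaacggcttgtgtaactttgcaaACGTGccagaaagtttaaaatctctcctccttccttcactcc
ADM: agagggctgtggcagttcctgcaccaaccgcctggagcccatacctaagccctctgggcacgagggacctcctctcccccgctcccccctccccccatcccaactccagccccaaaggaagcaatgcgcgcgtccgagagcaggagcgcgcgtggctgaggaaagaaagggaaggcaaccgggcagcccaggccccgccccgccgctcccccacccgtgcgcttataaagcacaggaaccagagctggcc
In BNIP3 and ANKRD37 the palindrome CACGTG gave a match on each strand, so the 2 matches of BNIP3, with first bases at -134 and -133 from the start, overlap. ANKRD37 had a further copy at -143, beside the pair at -162 and -161. LOX had 4 separate copies between -185 and -42, and P4HA1 had 1 at -86. The ADM stretch had GCGTG at -101, left in lower case.

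**Figure D1:**
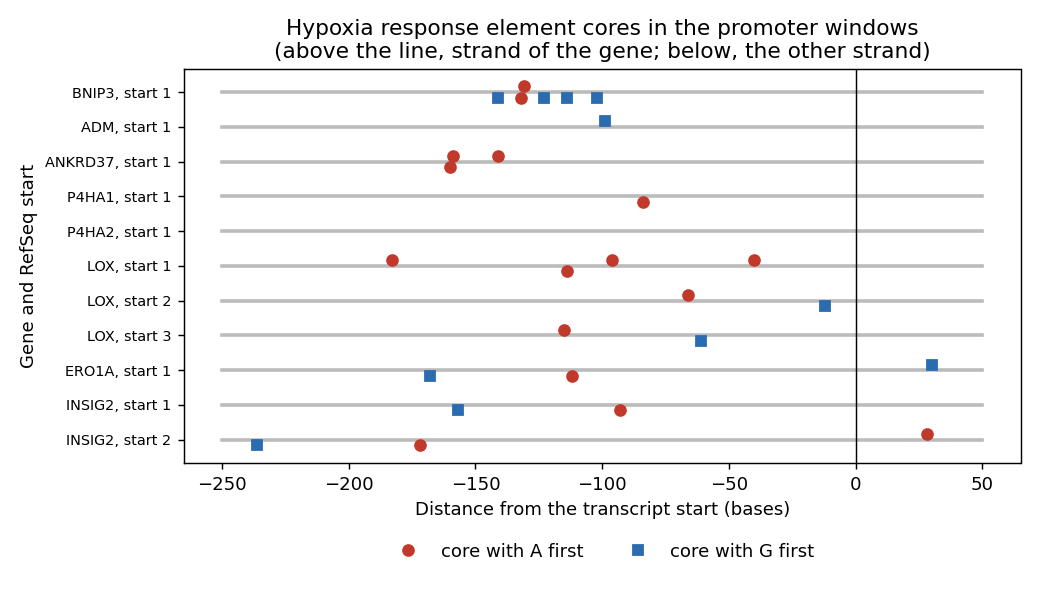
Places of the ACGTG (red circles) and GCGTG (blue squares) cores, in bases from the transcription start, in the RefSeq windows of 300 bases of 8 of the 10 genes. LOX start 1 carries 4 ACGTG cores and the ADM window carries 1 GCGTG and no ACGTG.

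All libraries were deep, with totals of 49479733 to 56054194 counts in control NPC, 43124679 to 69703791 in BafA1 NPC and 55706968 to 66544642 in hESC, and all 10 genes passed the filter on low counts that left 20685 genes to test. The groups matched their labels. All 8 pluripotency markers were lower and all 9 neural progenitor and floor plate markers higher in control NPC than in hESC (edgeR), and POU5F1, TDGF1 and PRDM14 were at 0 in the control NPC libraries. The first principal component, 79.2% of the variance, separated hESC from NPC, and the second, 9.87%, separated both NPC groups. The correlation of log expression, relative to the mean of all libraries, with gene GC content ran from -0.334 to -0.137 over control NPC libraries. It ran from -0.0204 to 0.048 over BafA1 NPC libraries and from 0.098 to 0.176 over hESC libraries. With trends in GC content and length removed, the median log2 difference of the 10 genes between BafA1 and control NPC was 1.78, against 1.59 without that step. Between control NPC and hESC that median was 0.32, against 0.47. Levels are given in CPM, read counts scaled by library size and TMM factors, and levels of different genes are compared in FPKM, which divides by gene length. Fewer cells that express a gene and less RNA per cell cannot be told apart in such libraries.

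By edgeR's quasi-likelihood test at an adjusted p under 0.05, all 10 genes were higher in BafA1 than in control NPC, the contrast that chose them, where 20.8% of all tested genes were called higher (4309) and 20.7% lower (4277). Over all genes this split depended on the scaling, with 3104 higher and 5681 lower with library size alone and 2941 and 5729 with limma on log2(FPKM + 1). In CPM, for 9 of the 10, all but BNIP3L, the lowest BafA1 library lay above the highest control library, as it did for 24.1% of tested genes, with the reverse for 25.1%. The log2 differences ran from 0.51 for BNIP3L to 3.01 for NDRG1, with a median of 1.59, where the median over all tested genes was 0. Nothing is read from these counts or calls, because the genes were picked for this difference.

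**Figure D2:**
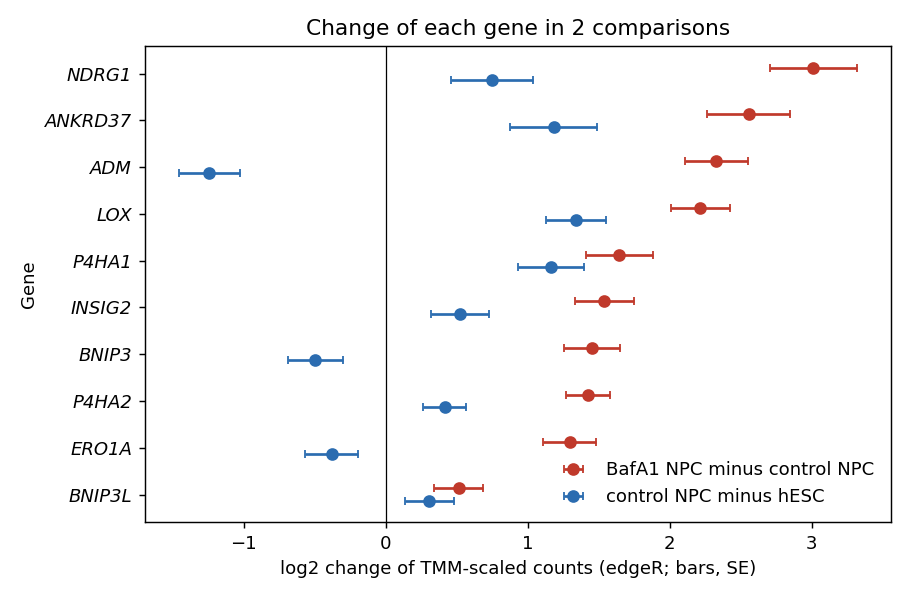
The log2 difference with its SE (edgeR, 3 libraries a group) of each of the 10 genes between BafA1 and control NPC (red) and between control NPC and hESC (blue). NDRG1, at 3.01, lies farthest to the right between BafA1 and control NPC, and ADM, at -1.24, farthest to the left between control NPC and hESC.

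NDRG1 and ANKRD37 had the largest differences of the 10. NDRG1 (chromosome 8, 133237175 to 133297252, GRCh38.p14 as for the other genes) encodes a cytoplasmic protein known for its induction in low oxygen and in differentiating cells. It was at 26.5, 16.8 and 33.5 CPM in hESC, then 31.1, 40.1 and 58.1 in control NPC and 308, 256 and 479.9 in BafA1 NPC. Its 3 BafA1 libraries lay several times above every other library, and the log2 difference between BafA1 and control NPC was 3.01 ± 0.30 (SE), 8.07-fold. That difference ranked 160 from the top among the 20685 tested genes. ANKRD37 (chromosome 4, 185396841 to 185400723), which encodes an ankyrin repeat protein, had the lowest mean FPKM of the 10 in hESC and control NPC, with libraries that overlapped those of LOX. It was at 1.26, 0.810 and 1.59 CPM in hESC, then 1.77, 2.86 and 3.70 in control NPC and 13.6, 14.1 and 21.4 in BafA1 NPC. The BafA1 libraries stood clear of the others here too, and the log2 difference was 2.56 ± 0.29, 5.89-fold. ANKRD37 overlaps UFSP2 and LRP2BP in RefSeq, and no source used here says whether the counting used strand, so reads of these genes may be shared.

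BNIP3 and BNIP3L encode related outer mitochondrial membrane proteins that bind ATG8 proteins and direct mitochondria to autophagy. BNIP3 (chromosome 10, 131967684 to 131981923) was at 286, 243 and 328 CPM in hESC, then 132, 229 and 247 in control NPC and 549, 528 and 585 in BafA1 NPC. BafA1 libraries were close to each other and above all others, while control replicate 1 was the lowest library, and the log2 difference between BafA1 and control NPC was 1.45 ± 0.20. The pseudogene BNIP3P1 had 2.95 CPM in control and 10.7 CPM in BafA1 NPC on average, and the counting may have split reads between it and BNIP3, as between BNIP3 and the overlapping gene PPP2R2D. BNIP3L (chromosome 8, 26383054 to 26413127) had the smallest difference of the 10. It was at 139, 139.8 and 178 CPM in hESC, then 149.8, 209 and 207 in control NPC and 275, 208 and 325 in BafA1 NPC. BafA1 replicate 2 fell just below control replicate 2, so the groups overlap, and the log2 difference was 0.51 ± 0.17. BNIP3L was past the threshold that describes the choice in all but 6 of 19 alternatives: with library size alone, with limma on either pseudocount, and without control replicate 1 (0.37), BafA1 replicate 1 (0.51) or BafA1 replicate 3 (0.36 on the log2 scale).

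P4HA1, P4HA2 and LOX act on collagen. P4HA1 and P4HA2 are alternative catalytic subunits of prolyl 4-hydroxylase, which stabilises the collagen triple helix, and LOX is the secreted enzyme that starts collagen crosslinks. P4HA1 (chromosome 10, 73007217 to 73096866) was at 131, 124 and 163 CPM in hESC, then 208, 328 and 401 in control NPC and 789.6, 854 and 1286 in BafA1 NPC. The 3 groups did not overlap and were in the order hESC, control, BafA1, and the log2 difference between BafA1 and control NPC was 1.64 ± 0.24. P4HA2 (chromosome 5, 132190147 to 132227853) was at 33.8, 29.4 and 43.2 CPM in hESC, then 42.6, 46.0 and 53.4 in control NPC and 125, 108 and 149 in BafA1 NPC, with control and hESC libraries that overlapped. Its log2 difference between BafA1 and control NPC was 1.43 ± 0.15. LOX (chromosome 5, 122063195 to 122078259) was at 8.31, 7.27 and 10.5 CPM in hESC, then 19.0, 22.4 and 24.7 in control NPC and 98.2, 72.7 and 136 in BafA1 NPC. As for P4HA1, the groups were apart and in that order, and the log2 difference was 2.22 ± 0.21. LOX shares its locus with SRFBP1, which was lower in BafA1 NPC, at 11.7 CPM against 15.1 CPM in control NPC on average. P4HA2-AS1, which overlaps P4HA2, was at 0 CPM in control NPC and 0.0112 CPM in BafA1 NPC.

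ERO1A (chromosome 14, 52639915 to 52695558) encodes the endoplasmic reticulum oxidase that passes electrons from protein disulfide isomerase to oxygen. It was at 90.8, 87.5 and 118 CPM in hESC, then 66.5, 75.4 and 85.8 in control NPC and 184, 136 and 239 in BafA1 NPC. Control libraries lay below hESC libraries and BafA1 libraries above both, and the log2 difference between BafA1 and control NPC was 1.30 ± 0.19. INSIG2 (chromosome 2, 118088471 to 118110997) encodes an endoplasmic reticulum protein that holds the SREBP escort SCAP back when sterols are plentiful. It was at 40.1, 38.5 and 52.8 CPM in hESC, then 47.8, 64.9 and 76.0 in control NPC and 168, 142 and 238 in BafA1 NPC. The log2 difference was 1.54 ± 0.21, with the BafA1 libraries above every other library. ADM (chromosome 11, 10305073 to 10307397) encodes adrenomedullin, a secreted peptide that dilates vessels. It was at 69.1, 56.5 and 58.6 CPM in hESC, then 28.8, 25.9 and 23.2 in control NPC and 90.7, 112 and 188 in BafA1 NPC. As for ERO1A, control libraries lay below hESC libraries and BafA1 libraries above both, and the BafA1 libraries were spread widely. Its log2 difference between BafA1 and control NPC was 2.33 ± 0.22, and 1.97 without BafA1 replicate 3.

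**Figure D3:**
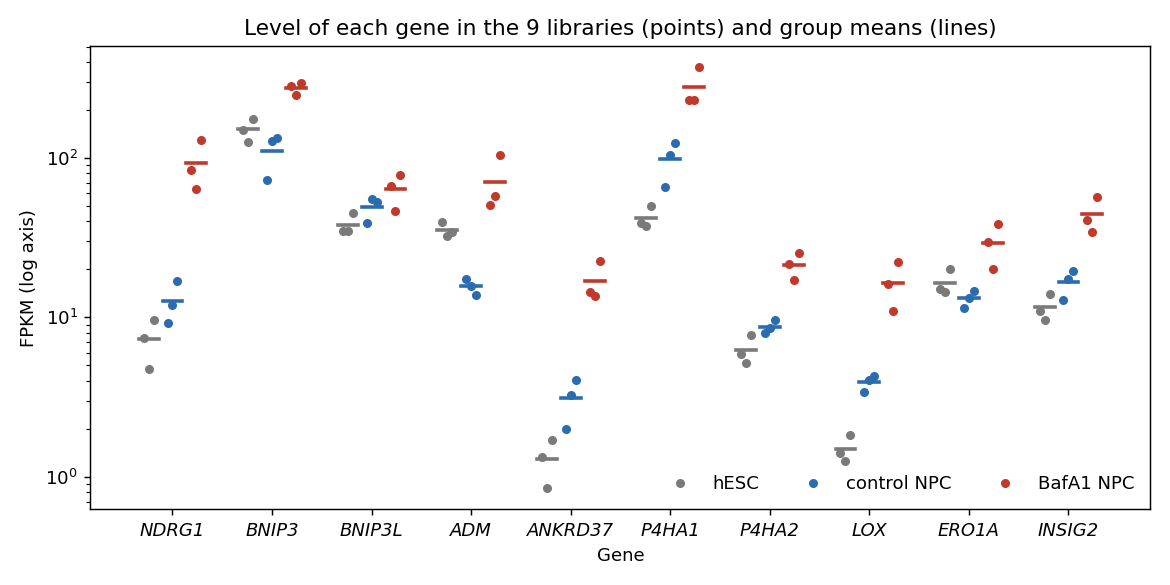
FPKM on a log axis of each of the 10 genes in the 9 libraries (points), by group, with the group mean as a line. The BafA1 libraries lie above the control NPC libraries for all but BNIP3L, whose groups overlap.

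Between genes, in FPKM, BNIP3 and P4HA1 held most of the summed level in every group. BNIP3 was at 151 ± 24.6 FPKM in hESC (SD, n = 3), 111 ± 33.7 in control NPC and 275 ± 24.4 in BafA1 NPC, and P4HA1 at 42.1 ± 6.82, 98.2 ± 29.9 and 278 ± 82.0. The 10 genes summed to 311 ± 47.0 FPKM in hESC, then 333 ± 80.6 in control NPC and 909 ± 210 in BafA1 NPC. BNIP3 and P4HA1 made up 62.1%, 63.0% and 60.9% of that sum, but the split between them moved from 48.5% BNIP3 and 13.5% P4HA1 in hESC to 33.5% and 29.5% in control NPC and 30.3% and 30.6% in BafA1 NPC. Next in control NPC came BNIP3L at 49.2 ± 8.82 FPKM, clear of its neighbours. INSIG2 (16.7 ± 3.44), ADM (15.7 ± 1.80), ERO1A (13.2 ± 1.61), NDRG1 (12.7 ± 3.88) and P4HA2 (8.74 ± 0.859) followed, with libraries that overlapped between neighbours among these 5. The P4HA2 libraries all lay above those of LOX. LOX (3.91 ± 0.476) and ANKRD37 (3.10 ± 1.05) were lowest and overlapped. In BafA1 NPC, NDRG1 came next after P4HA1 and BNIP3, at 92.5 ± 33.4 FPKM, but each gene from NDRG1 through ADM (71.0 ± 28.98), BNIP3L (63.6 ± 15.9), INSIG2 (44.3 ± 11.6), ERO1A (29.4 ± 9.15), P4HA2 (21.4 ± 4.13) and ANKRD37 (16.8 ± 4.89) to LOX (16.5 ± 5.61) overlapped the next. In hESC, ADM, at 35.5 ± 3.84 FPKM, overlapped BNIP3L (38.2 ± 6.12) and was above ERO1A (16.5 ± 3.09).

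Control NPC were then compared with hESC, which asks how the 10 genes moved over differentiation without BafA1. The hESC libraries had no part in choosing the genes, though the control libraries did. The p-values and calls below are therefore not free of that choice and serve as a description. By edgeR, 6 of the 10 rose, where 33% of all tested genes were called higher, and 2 fell, where 31.6% were called lower; the median log2 difference was 0.47 and that of all tested genes 0.03. LOX rose by 1.34 ± 0.21 on the log2 scale (adjusted p = 1.37e-04), ANKRD37 by 1.18 ± 0.31 (0.00489) and P4HA1 by 1.17 ± 0.23 (8.66e-04). ADM fell by 1.24 ± 0.22 (adjusted p = 3.08e-04). These 4 calls held in all 19 alternatives. The other 4 were near the threshold. NDRG1 differed by 0.75 ± 0.29 (adjusted p = 0.0376), INSIG2 by 0.52 ± 0.20 (0.0406), P4HA2 by 0.42 ± 0.15 (0.0298) and BNIP3 by -0.50 ± 0.19 (0.0399), and the calls were lost in 7, 9, 5 and 10 of 19 alternatives. BNIP3L, at 0.31 ± 0.17 (adjusted p = 0.138), and ERO1A, at -0.38 ± 0.18 (0.0889), did not pass. In CPM, 5 of the 10 had groups that did not overlap, where this was so upwards for 37% of tested genes and downwards for 35.8%. Leaving out hESC replicate 1 or 2, control replicate 2 or 3 or BafA1 replicate 1, which shares the estimate of spread, took the number that rose from 6 to 3, with the calls of NDRG1, INSIG2 and P4HA2 lost each time. The NDRG1 difference was then 0.48 at its smallest, without control replicate 3. BNIP3 did not pass without control replicate 1 (-0.26), hESC replicate 1 or 3, or BafA1 replicate 2 or 3. BNIP3L passed without control replicate 1 (0.45), and ERO1A passed as lower in 7 alternatives, among them DESeq2 (-0.43) and without BafA1 replicate 2 or 3.

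BafA1 NPC were above hESC as well. This comparison shares its treated libraries with the one that chose the genes, so its values are given without a test. In CPM the lowest BafA1 library lay above the highest hESC library for all 10, where this was so for 37.2% of tested genes. The log2 differences were 3.76 ± 0.32 for NDRG1, 3.74 ± 0.31 for ANKRD37, 3.55 ± 0.22 for LOX and 2.81 ± 0.25 for P4HA1, all higher in control NPC than in hESC too. They were 0.82 ± 0.17 for BNIP3L, 0.92 ± 0.18 for ERO1A, 0.96 ± 0.19 for BNIP3 and 1.09 ± 0.21 for ADM. ADM and BNIP3 were called lower in control NPC than in hESC, and ERO1A was lower without a call. For these genes a smaller difference from hESC than from control NPC follows from that order.

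Within each group most of the 10 genes were highest in 1 library and lowest in another. BafA1 replicate 3 was the highest of its group for all 10, as it was for 30.6% of tested genes, and BafA1 replicate 2 the lowest for 7. Control replicate 1 was the lowest control library for 9 of the 10, against 39.3% of tested genes, and the highest only for ADM. Among hESC, replicate 3 was highest for 9 and replicate 2 lowest for 9, against 32.2% and 38.3% of tested genes. The median deviation of the 10 genes from their group mean was 0.42 on the log2 scale in BafA1 replicate 3, -0.28 in BafA1 replicate 2 and -0.34 in control replicate 1. Without BafA1 replicate 3 the median difference between BafA1 and control NPC was 1.40, and it was also 1.40 without control replicate 1. ADM went its own way in control NPC, where replicate 1 was highest at 28.8 CPM and replicate 3 lowest at 23.2 CPM, while for 8 of the 10 genes replicate 3 was highest.

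**Figure D4:**
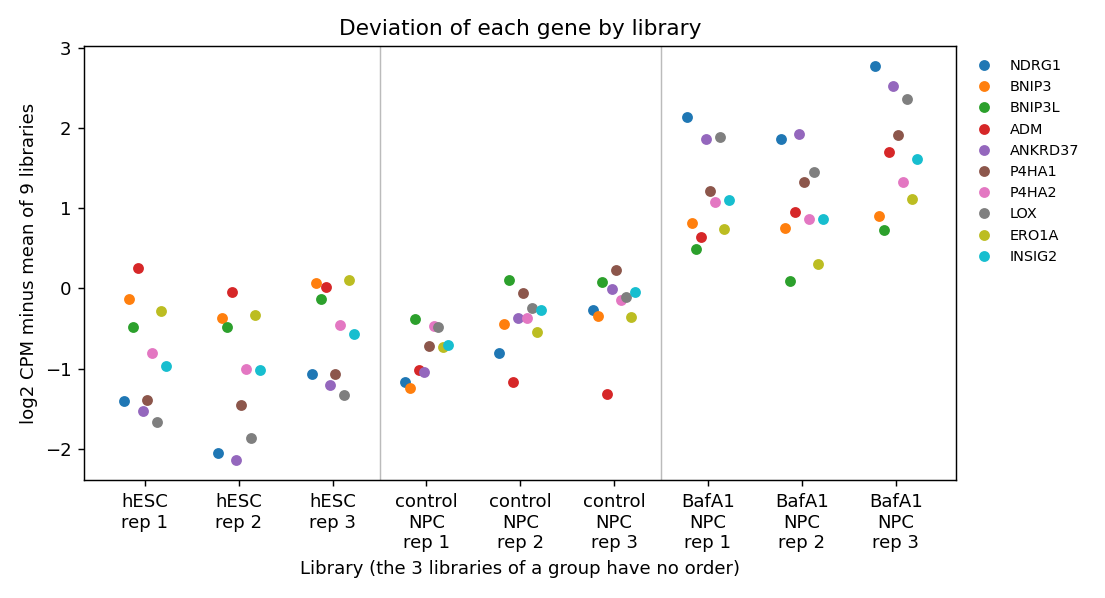
Deviation of each of the 10 genes from its mean over the 9 libraries, on the log2 CPM scale, by library. All 10 genes are highest in BafA1 replicate 3 among the BafA1 libraries, and ADM (red) lies below the others in control replicates 2 and 3.

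As a description over the 9 libraries, which share the 3 groups, each gene's log2 CPM was set against the mean of the other 9, each standardised. All 10 were chosen by their higher counts after BafA1 in these same libraries. A high r with each other, or of another gene with their mean, is therefore partly built in, and nothing is read from it. Pearson's r was 0.989 for NDRG1, 0.987 for INSIG2, 0.983 for P4HA2, 0.967 for ANKRD37, 0.940 for LOX, 0.936 for P4HA1, 0.898 for ERO1A, 0.896 for BNIP3L, 0.852 for BNIP3 and 0.692 for ADM. Of 11792 other genes searched, the 5 whose pattern was most like the mean of the 10 were VEGFA (r = 0.995), ENO2 (0.995), MXI1 (0.994), FGF11 (0.994) and GBE1 (0.993). The search took genes with a mean of at least 5 CPM in the highest group. It left out LOC symbols, antisense symbols and symbols ending in P and digits, IGFBP3 among them. VEGFA is the angiogenic growth factor, ENO2 a glycolytic enolase, MXI1 a MAX partner and GBE1 the glycogen branching enzyme. VEGFA was at 78.9 ± 9.48 CPM in hESC, then 102 ± 26.3 in control NPC and 395 ± 97.2 in BafA1 NPC, with the groups in the order seen for NDRG1.

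The oxygen sensing genes did not share one direction between BafA1 and control NPC. Of 10 tested, 4 rose and 3 fell (edgeR), with a median log2 difference of 0.12. For this and each list below, the share of all tested genes between these groups is 20.8% called higher and 20.7% lower. The lists were chosen with earlier results of these data known, so their counts and p-values serve as a description. HIF1A was at 257 ± 14.1 CPM in hESC, then 192 ± 3.63 in control NPC and 169 ± 11.5 in BafA1 NPC, a log2 difference between NPC groups of -0.19 ± 0.08 (adjusted p = 0.0877), which passed as lower with library size alone (-0.32) and with limma. EPAS1, at 0.906 ± 0.129 CPM in control NPC and 1.39 ± 0.395 in BafA1 NPC, differed by 0.62 ± 0.25 (adjusted p = 0.0682), and passed without BafA1 replicate 2 (0.77). The genes that rose included the negative regulators that are themselves hypoxia targets. EGLN3 rose from 78.8 ± 31.8 to 200.3 ± 45.1 CPM, by 1.35 ± 0.25 on the log2 scale (adjusted p = 0.00120), and EGLN1 from 76.3 ± 7.38 to 157 ± 32.9 CPM, by 1.04 ± 0.15 (3.11e-04). HIF3A, which can oppose the other HIF proteins, rose by 1.14 ± 0.10 (1.91e-05), and ARNT by 0.43 ± 0.08 (0.00155). VHL changed by -0.39 ± 0.08 (0.00171), EGLN2 by -0.56 ± 0.10 (8.06e-04) and ARNT2 by -0.64 ± 0.11 (0.00108), all downwards.

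Other hypoxia-inducible genes outside glycolysis moved mostly upwards with BafA1. Of 36 tested, 31 rose and 2 fell, with a median of 1.19. Neither this list nor that of glycolysis was drawn up blind to earlier results of these data, so neither is independent support. CA9, the carbonic anhydrase of the cell surface, rose from 2.54 ± 0.259 to 16.2 ± 5.36 CPM, by 2.68 ± 0.24 on the log2 scale (adjusted p = 1.73e-05). IGFBP3, which binds insulin-like growth factors, rose by 3.17 ± 0.21 (4.98e-06), the transcription repressor BHLHE40 by 2.87 ± 0.19 (4.68e-06), the coactivator partner CITED2 by 1.10 ± 0.10 (1.73e-05) and VEGFA by 1.95 ± 0.20 (3.79e-05). Lower were the transferrin receptor TFRC, by 0.70 ± 0.09 (adjusted p = 1.60e-04), and NT5E, the ecto-nucleotidase CD73, from 18.9 ± 5.26 to 4.15 ± 0.512 CPM (6.39e-05), both outside the rule for named genes. CA12, at 0.971 ± 0.289 CPM in control NPC and 1.52 ± 0.323 in BafA1 NPC, differed by 0.65 ± 0.26 and did not pass (adjusted p = 0.0641), except without control replicate 1 (0.91) and in 3 other alternatives. All 22 glycolysis genes rose, with a median of 1.31, among them GPI by 2.06 ± 0.14, PFKP by 1.42 ± 0.09 and HK1 by 1.38 ± 0.10. Between hESC and control NPC, 2 of the 22 glycolysis genes rose and 9 fell, with a median of -0.26. Of the 36 other hypoxia genes 18 rose and 8 fell, with a median of 0.46. Over all tested genes, 33% were called higher there and 31.6% lower.

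**Figure D5:**
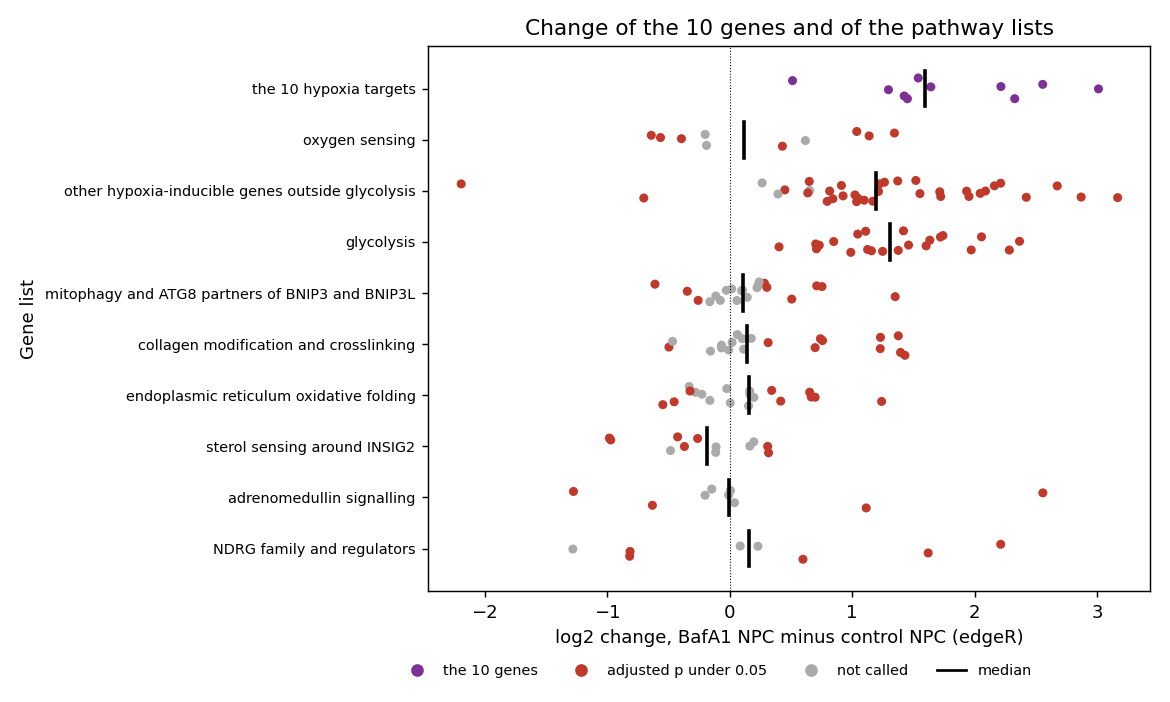
The log2 difference between BafA1 and control NPC of the 10 genes (purple) and of each pathway list, with genes at an adjusted p under 0.05 (edgeR) in red, others in grey and the median as a black line; genes with no count in a group are left out. The glycolysis list and the other hypoxia genes have medians of 1.31 and 1.19, and the other lists lie around 0. The genes and lists were chosen with earlier results of these data known.

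The partners of BNIP3 and BNIP3L in mitophagy, a list of other receptors, BCL2 relatives and ATG8 proteins, showed smaller changes. Of 21 tested, 6 rose and 3 fell, with a median of 0.11. FKBP8, a mitophagy receptor of the outer membrane, rose from 247 ± 9.69 to 416 ± 43.02 CPM, by 0.75 ± 0.10 (adjusted p = 1.31e-04). The ATG8 protein gene GABARAPL1 rose by 0.71 ± 0.10 (1.72e-04) and the receptor BCL2L13 by 0.51 ± 0.07 (1.98e-04). PHB2 and BCL2L1 also rose, and MCL1, PGAM5 and ULK1 fell.

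Among genes of collagen modification and crosslinking, 9 of 20 rose and 1 fell, with a median of 0.15. The remaining catalytic subunit of prolyl 4-hydroxylase, P4HA3, was scarcely detected, at 0.104 ± 0.135 CPM in hESC, then 0.199 ± 0.0585 in control NPC and 0.216 ± 0.0521 in BafA1 NPC, and differed by 0.11 ± 0.77 (adjusted p = 0.928). P4HB, the shared subunit, rose from 476 ± 62.0 to 773 ± 109 CPM, by 0.70 ± 0.12 (9.99e-04). The relatives of LOX split. LOXL2 rose by 1.23 ± 0.14 (6.50e-05) and LOXL3 by 1.38 ± 0.11 (1.16e-05). LOXL1, at 38.1 ± 5.30 CPM in control NPC and 37.9 ± 3.90 in BafA1 NPC, differed by -0.01 ± 0.11 (0.971), and LOXL4, at 4.48 ± 1.00 CPM in control NPC and 3.24 ± 0.545 in BafA1 NPC, by -0.47 ± 0.33 (0.275). The prolyl 3-hydroxylase P3H2 rose by 1.40 ± 0.12 (1.73e-05) and the lysyl hydroxylase PLOD1 by 1.23 ± 0.11 (1.99e-05). Mesenchyme markers, genes of cells that make much collagen, differed in both directions. Of the 10 markers, COL1A1, COL1A2 and PDGFRB rose and LUM, DCN, PRRX1 and THY1 fell. Their summed level was 1710 to 2837 CPM in control and 3136 to 3491 CPM in BafA1 NPC, of which COL1A1 held 54.2% and 60.0%. LUM was at 30.0 to 33.7 CPM in control NPC and 8.56 to 12.0 CPM in BafA1 NPC, and no mesenchyme marker was at 0 in an NPC group. The part of such cells in the values of P4HA1, P4HA2 and LOX was not tested.

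In the list of oxidative folding in the endoplasmic reticulum, where ERO1A works, 6 of 19 rose and 3 fell, with a median of 0.15. ERO1B, the paralog of ERO1A, was at 5.30 ± 0.476 CPM in hESC, then 9.19 ± 1.52 in control NPC and 7.85 ± 0.624 in BafA1 NPC and differed by -0.23 ± 0.15 between NPC groups (adjusted p = 0.256). VKORC1, which reduces vitamin K, rose by 1.24 ± 0.15 (8.10e-05) and the sulfhydryl oxidase QSOX1 by 0.67 ± 0.10 (3.36e-04). DNAJC10, a disulfide reductase, fell from 184 ± 5.83 to 126 ± 7.25 CPM (2.79e-04).

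Among the sterol sensing genes around INSIG2, 2 of 12 rose and 5 fell, with a median of -0.19. INSIG1, the paralog of INSIG2 and a target of SREBP, was at 123 ± 8.54 CPM in hESC, then 25.6 ± 5.50 in control NPC and 18.3 ± 8.36 in BafA1 NPC. It fell from hESC to control NPC (adjusted p = 8.72e-06), and between NPC groups differed by -0.48 ± 0.25 (adjusted p = 0.145); without BafA1 replicate 3 the INSIG1 BafA1 against Control difference was -0.93 (edgeR adjusted p = 0.00266). SCAP was higher by 0.31 ± 0.09 (0.0127), a call lost with library size alone, with limma and without control replicate 2 (0.27).

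Of the 13 partners of adrenomedullin, 10 were tested, of which 2 rose and 2 fell. PAM, which amidates the peptide, was at 336 ± 26.3 CPM in control NPC and 334 ± 9.07 in BafA1 NPC, and the scavenger receptor gene ACKR3 at 19.5 ± 2.66 and 19.6 ± 0.883 CPM. ADM2, a related peptide, fell from 19.9 ± 1.78 CPM in hESC to 4.99 ± 1.17 in control NPC (adjusted p = 1.24e-06) and was at 10.8 ± 1.66 in BafA1 NPC (5.21e-04 between NPC groups), the order of groups seen for ADM between hESC and control NPC. CALCRL, the receptor that binds adrenomedullin with RAMP2 or RAMP3, was at 2.06 ± 0.462 CPM in hESC, then 4.30 ± 0.666 in control NPC and 2.77 ± 0.483 in BafA1 NPC and differed between NPC groups by -0.63 ± 0.21 (0.0342), a call lost without control replicate 1 or 3, BafA1 replicate 1 or 2 or hESC replicate 1 and with GC content and length trends removed. RAMP2, at 6.57 ± 1.74 CPM in control NPC and 6.79 ± 2.00 in BafA1 NPC, differed by 0.04 ± 0.23 (0.910), and RAMP1, at 5.35 ± 2.19 CPM in control NPC and 4.85 ± 0.313 in BafA1 NPC, by -0.15 ± 0.28 (0.709). RAMP3 was at 0 CPM in all control libraries and 0.0121 CPM on average in BafA1 NPC. The peptidase MME, which degrades adrenomedullin, fell from 3.90 ± 0.981 to 1.60 ± 0.334 CPM (5.78e-04). CALCR was at 0.0502 ± 0.0592 CPM in control NPC and 0.295 ± 0.236 in BafA1 NPC (0.0246), a call lost without control replicate 2 or 3 or BafA1 replicate 1 and with limma. Endothelial markers summed to 26.7 to 33.9 CPM in control and 21.2 to 26.8 CPM in BafA1 NPC, with EMCN at 0 in both and PECAM1 at 0 in the control libraries.

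Within the NDRG family and its regulators, 3 of 8 rose and 2 fell with BafA1, with a median of 0.16. Of all tested genes, 20.8% were called higher and 20.7% lower. NDRG2, a relative of NDRG1, fell from 5.05 ± 0.959 to 2.88 ± 0.505 CPM (adjusted p = 0.00349) and NDRG4 rose by 0.60 ± 0.13 (0.00271). NDRG3, at 52.2 ± 3.04 CPM in control NPC and 55.4 ± 1.89 in BafA1 NPC, differed by 0.09 ± 0.08 (0.398). The kinase gene SGK1, whose product phosphorylates NDRG1, fell from 3.31 ± 0.261 to 1.86 ± 0.458 CPM (0.00177), and its relative SGK2 rose from 1.09 ± 0.411 to 3.37 ± 0.406 CPM (0.00203). MYC, a known repressor of NDRG1, was at 72.4 ± 3.38 CPM in hESC, then 5.78 ± 1.20 in control NPC and 26.9 ± 3.15 in BafA1 NPC and rose between NPC groups by 2.21 ± 0.14 (4.68e-06).

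Markers of the other cell types the cultures could hold were summed as well. Neural progenitor and floor plate markers were at 1324 to 1664 CPM in control and 1461 to 1795 CPM in BafA1 NPC, and neuron markers at 650 to 701 and 680 to 724 CPM. Pluripotency markers were at 618 to 671 CPM in control and 839 to 909 CPM in BafA1 NPC, against 5673 to 6001 CPM in hESC, with TDGF1 at 0 in both NPC groups. Of these 8, LIN28A was called higher in BafA1 than in control NPC, at 786 ± 43.2 against 537 ± 37.3 CPM, and DPPA4 and DNMT3B lower, with a median log2 difference of -0.25 over the 5 with counts in both groups. Epithelial markers were at 559 to 756 CPM in control and 928 to 1214 CPM in BafA1 NPC, with 5 of 8 called higher and 1 lower, and ESRP1 at 0 in control NPC. The keratins KRT8 (422 CPM in control and 632 in BafA1 NPC on average), KRT18 (157 and 219) and KRT19 (48.7 and 124) held most of that sum. CDH1 (0.285 and 1.01 CPM), GRHL2 (0.624 and 0.228), EPCAM (11.8 and 13.3) and CLDN6 (19.2 and 34.2) were far lower. Neural crest markers were at 22.4 to 28.5 and 27.1 to 33.6 CPM, with FOXD3 at 0 in both NPC groups and SOX10 at 0 in control NPC. The part of these lists in the difference of the 10 genes was not tested.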

How the data were processed

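Gene-level raw counts and FPKM were deposited for 9 libraries. Per the labels' protocols, RNA was extracted with TRIZOL and sequenced from a stranded mRNA kit. Per the submitters' processing notes, Trimmomatic and GRCh38 were used. The sources used here name no aligner and do not give the way reads were counted, strand included. The deposited counts are whole numbers per gene, and the deposited FPKM values are the authors' scaling by gene length and depth. Columns were matched to samples by group and replicate number, and the columns headed as controls to the untreated NPC.

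Counts were analysed in R 4.3.3 with edgeR 4.0.16: filterByExpr, which left 20685 of 46427 genes, TMM factors, and quasi-likelihood fits over all 9 libraries with group as the only term. Adjusted p-values are Benjamini-Hochberg values over the 20685 genes, with calls at an adjusted p under 0.05. An SE is the log2 change divided by the root of the F statistic. The functions were tested on simulated data. Medians of lists leave out genes without a count in a group. GC content and length were known for 84.5% of tested genes. The alternatives were RLE factors, library size alone, no filter on low counts, DESeq2 1.42.0, limma 3.58.1 on log2(FPKM + 1) and log2(FPKM + 0.1), only the groups compared, a replicate block, GC content and length trends removed, the last 2 together, and each library left out.

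The 10 genes, the pathway lists and the marker lists were chosen with earlier results of these data known. Genes named with values are the 10, their paralogs and direct partners, core oxygen sensing genes, up to 3 genes of each of the 9 pathway lists with the smallest adjusted p in BafA1 against control NPC, and the 5 most similar genes. Any others complete a count or are marked, and were picked after their values were seen. Promoter windows are from a RefSeq table (GRCh38.p14), matched by gene ID. A few genes of the lists are counted but not reported here by name.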

Additional observations from a re-analysis of the deposited data

How the results depend on the processing

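The genes were chosen by their difference between BafA1 and control NPC, so their calls there are no measure of stability. Between control NPC and hESC, leaving out 1 library gave 3 to 7 genes higher and 1 to 2 lower, against 6 and 2. In those fits 6224 to 6951 of all tested genes were higher and 5920 to 7054 lower, with 21090 to 21324 genes tested. With all libraries 33% of tested genes were higher and 31.6% lower. With library size alone, limma on log2(FPKM + 1) or limma on log2(FPKM + 0.1), 1 gene was lower, as were 5681, 6141 and 6150 of 20685 tested genes. The cause was not tested. For DNAJC10 Control against hESC, which was not called (log2 difference 0.09), calls of both signs arose. The gene was called lower with GC content and length trends removed (-0.24, edgeR adjusted p = 0.00883) and with the replicate block as well (-0.24, 0.0145). With library size alone it was called higher (0.19, edgeR adjusted p = 0.0470). Library size alone moved the median of all tested genes between BafA1 and control NPC by -0.12, and that of the 10 genes to 1.45. The share of calls that were higher was then 35.3%, and 33.9% with limma on log2(FPKM + 1) and 33.8% on log2(FPKM + 0.1), against 50.2%.

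Same-numbered libraries did not deviate together in every pair. Their correlations of deviations ran from -0.0677 to 0.144 over 9 pairs, and those of other pairs from -0.139 to 0.116 over 18. The hESC replicate 3 had 0.144 with BafA1 replicate 3 and 0.137 with control replicate 3. Control replicate 3 and BafA1 replicate 3 had -0.0677. Of the 10 genes, replicate 3 was highest for 10 among BafA1 libraries, 9 among hESC and 8 among controls. Whether the 10 genes share a shift by replicate number was not tested. The numbers were not taken to pair the samples. With the replicate block, 4112 genes were higher and 4130 lower in BafA1 than in control NPC, against 4309 and 4277. Under the block CA12 (BafA1 against Control, 0.66) and INSIG1 (BafA1 against Control, -0.53) passed the threshold. With GC content and length trends removed NDRG3 passed as higher (0.21), and with limma on log2(FPKM + 1) LOXL4 passed as lower (-0.32).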
